A study of Rattus with 6 samples.

Results

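ADAM and ADAMTS genes encode 2 related families of zinc metalloproteases, and 10 of them were followed here in rat cardiac fibroblasts: Adam9, Adam10, Adam12, Adam17, Adam19, Adamts1, Adamts4, Adamts5, Adamts9 and Adamts12. They were taken by symbol, and each symbol matched 1 gene among the 21378 genes of the deposited count table. All 10 were abundant enough to be tested, with 14412 genes tested in all. The siNONO group was 3 libraries of cells given an siRNA directed at Nono with a lipid transfection reagent. The siCtrl group was 3 libraries of the same cells, titled siCtrl but described in another label field as carrying an empty vector, and the labels do not settle which of these the control cells got. Both groups were cultured rat cardiac fibroblasts bought from a commercial supplier, which the labels call a cell line. No source used here gives the strain, sex and age of the animals or the sequence of the siRNA, and the 48 h harvest in the labels is stated for RT-qPCR and western blotting alone. NONO, a nuclear protein that binds RNA and DNA, has roles in splicing and transcription, and the series asks how the transcriptome differs with and without it.

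ADAM proteases sit in the cell membrane, where they cut other membrane proteins near the cell surface and so release growth factors, cytokines and receptor ectodomains, a process called shedding. ADAMTS proteases lack the membrane anchor, are secreted, and carry thrombospondin type 1 repeats that help hold them in the extracellular matrix, where several of them cut versican, aggrecan and other large proteoglycans. Both families are made as inactive precursors whose prodomain is removed by proprotein convertases, and TIMP3 inhibits members of both. In the heart, ADAM12 and ADAM19 are known for processing of growth factor ligands, and ADAM19 for valve and septum development. Versican-cutting ADAMTS proteases are known there for remodelling of the provisional matrix.

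Poly(A)-selected RNA was sequenced to total counts of 27792357 to 33365588 per library. Nono was at 30.7% of its siCtrl level in the siNONO libraries (73.2 ± 3.15 CPM in siNONO and 239 ± 7.15 CPM in siCtrl, SD, n = 3 each; CPM is the read count per 10⁶ reads, scaled by TMM). All 10 fibroblast markers were tested, 1 raised and 4 lowered, and their summed level was 31631 to 32603 CPM in siNONO and 32470 to 35308 CPM in siCtrl. All 10 markers of macrophages and leukocytes were also tested, 4 lowered and 0 raised, with a sum of 1289.9 to 1391 CPM in siNONO and 1354 to 1547 CPM in siCtrl. Endothelial markers summed to 44.5 to 46.6 CPM in siNONO and 44.1 to 46.2 CPM in siCtrl (1 of 6 tested raised). Emcn was at or near 0, and the highest were Egfl7 (20.4 CPM in siNONO and 20.9 CPM in siCtrl) and Tek (16.3 and 13.9 CPM, raised). Pericyte and smooth muscle markers summed to 474 to 494 CPM in siNONO and 508 to 513 CPM in siCtrl (4 of 9 lowered, 1 raised). Rgs5 was near 0, and Pdgfrb was the highest (408 CPM in siNONO and 417 CPM in siCtrl). Epicardial and mesothelial markers summed to 39.7 to 42.7 CPM in siNONO and 32.8 to 36.2 CPM in siCtrl (1 of 4 raised). Krt19 was near 0, and Msln, the raised marker, was the highest (27.1 CPM in siNONO and 20.3 CPM in siCtrl). Cardiomyocyte markers summed to 109.5 to 118.0 CPM in siNONO and 144.8 to 162.0 CPM in siCtrl (1 of 3 tested lowered). Myh6, Actc1 and Ttn were near 0, and Tnnt2, named after its values were seen, was the lowered marker (112 CPM in siNONO and 152 CPM in siCtrl). Pln (1.82 CPM in siNONO and 2.33 CPM in siCtrl) and Tnni3 (0.274 and 0.391 CPM) did not pass. The part of any of these cells in the results below was not tested. The labels do not say that replicates came from separate cultures, so the spread behind the p-values is that among these libraries and may be technical. In such bulk samples fewer cells of a type and less RNA per cell cannot be told apart.

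Per length, Adam19 was the most abundant member in both groups and Adamts9 and Adamts12 the least. The deposited FPKM values, which divide reads by gene length and library size, allow genes to be compared with each other. In siCtrl libraries the mean FPKM was 51.5 for Adam19, 29.2 for Adamts1, 27.96 for Adam12, 22.5 for Adam17, 19.7 for Adam9, 18.3 for Adamts5, 11.1 for Adam10, 9.66 for Adamts4, 1.30 for Adamts9 and 1.12 for Adamts12. Of these neighbours, Adamts1 and Adam12, Adam9 and Adamts5, Adam10 and Adamts4, and Adamts9 and Adamts12 had overlapping siCtrl values and did not differ beyond their spread. Adamts5 stood second in the siNONO libraries and sixth in the siCtrl libraries, while Adam12 stood sixth in siNONO and the third in siCtrl. In siNONO the FPKM of Adamts5 (23.5 to 28.9) overlapped those of Adamts1 (24.1 to 25.6) and Adam17 (22.9 to 25.5), and the FPKM of Adam9 (19.2 to 19.8) overlapped that of Adam12 (16.7 to 19.4). Among all tested genes Adam19 stood at the 91.1 percentile of mean siCtrl FPKM and Adamts12 at the 25.9 percentile.

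**Figure D1:**
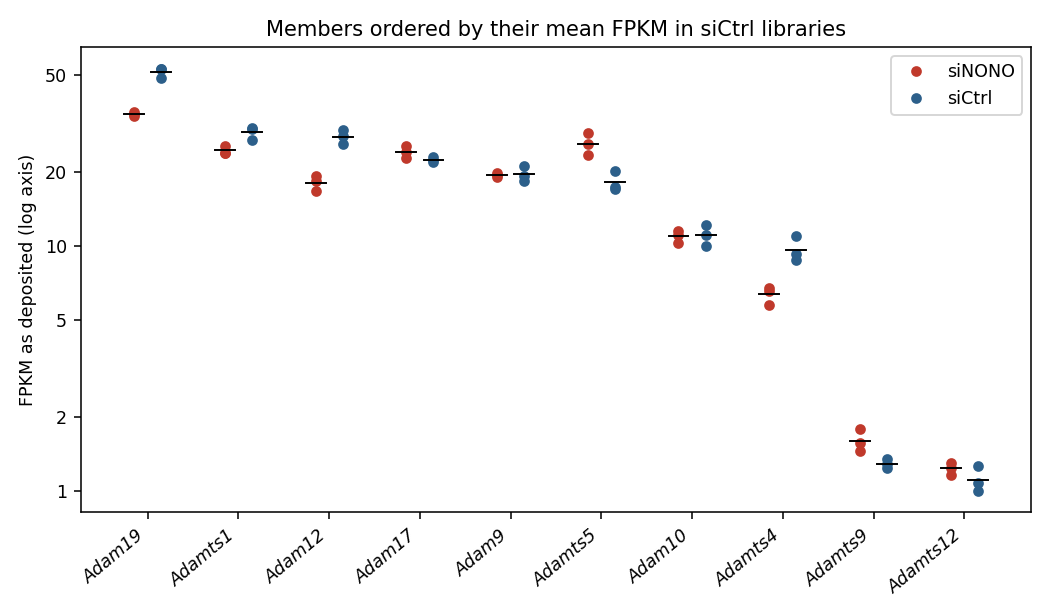
Deposited FPKM (log axis) of the 10 members in each siNONO library (red) and siCtrl library (blue), with the group mean as a bar, ordered from left to right by the siCtrl mean. Adam19, Adamts1, Adam12 and Adamts4 sit lower in siNONO, and Adamts5 and Adamts9 sit higher.

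After Nono knockdown, 2 membrane proteases and 2 secreted proteases fell and 2 secreted proteases rose. Adam12, Adam19, Adamts1 and Adamts4 were lowered, Adamts5 and Adamts9 were raised, and Adam9, Adam10, Adam17 and Adamts12 did not pass the test. That is 6 of 10 members called, where edgeR's quasi-likelihood test called 32.1% of all tested genes at a Benjamini-Hochberg adjusted p threshold of 0.05. The 4 lowered members compare with 15.9% of all genes lowered, and the 2 raised members with 16.2% raised. The group values did not overlap for 6 of the 10 members and for 45.0% of all tested genes. The median log2 fold change (siNONO minus siCtrl throughout) was -0.07 over the members and 0.00 over all tested genes. Of 5 ADAM members 2 were lowered and 0 raised, and of 5 ADAMTS members 2 were lowered and 2 raised; whether the families differ was not tested.

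**Figure D2:**
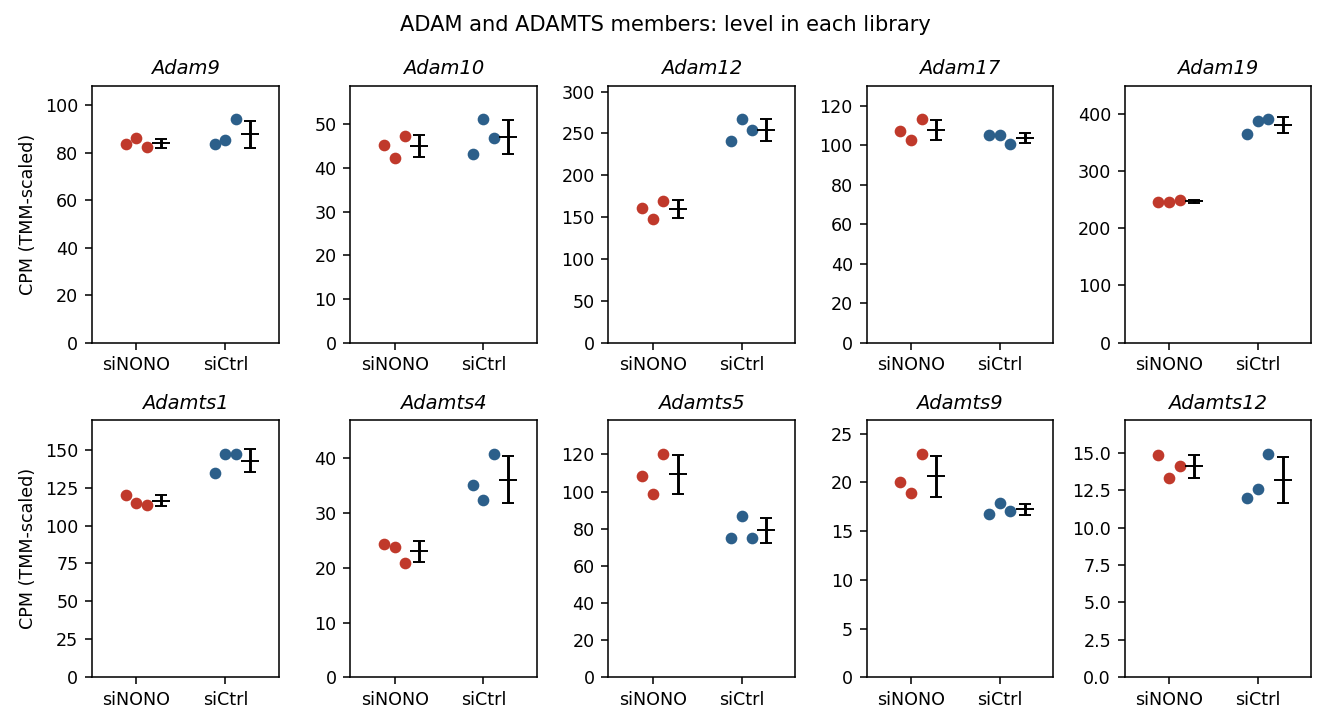
TMM-scaled CPM of each member in the 3 siNONO libraries (red, left) and the 3 siCtrl libraries (blue, right), with the mean and SD beside each group; every axis starts at 0. The groups are apart for Adam12, Adam19, Adamts1, Adamts4, Adamts5 and Adamts9, and overlap for Adam9, Adam10, Adam17 and Adamts12.

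Both meltrins, the membrane proteases Adam12 (meltrin alpha) and Adam19 (meltrin beta), fell. Adam12 (gene-Adam12, chromosome 1), a sheddase of EGF-family ligands that is induced in activated fibroblasts, had 161, 148 and 169.7 CPM in siNONO replicates 1, 2 and 3, against 241, 267 and 254 CPM in siCtrl replicates 1, 2 and 3. The highest siNONO library lay well below the lowest siCtrl library. The means were 159 ± 11.01 CPM in siNONO and 254 ± 13.0 CPM in siCtrl (SD, n = 3 each), which is 62.7% of the control level and on the log2 scale -0.67 ± 0.05 (SE; edgeR adjusted p = 7.47e-07). Adam19 (gene-Adam19, chromosome 10), which cuts neuregulins and is needed for heart valve and septum formation in mice, had 245, 245 and 249.8 CPM in siNONO replicates 1, 2 and 3, against 364, 387 and 390.0 CPM in siCtrl replicates 1, 2 and 3. The siNONO libraries were nearly identical to each other and all below the controls. Their means were 247 ± 2.72 CPM in siNONO and 380.3 ± 14.0 CPM in siCtrl (SD, n = 3 each), 64.9% of the control level, and the log2 fold change was -0.62 ± 0.04 (SE; edgeR adjusted p = 1.44e-07). The ratio of Adam12 to Adam19 CPM was 0.646 ± 0.0388 in siNONO and 0.668 ± 0.0198 in siCtrl (SD, n = 3 each), a difference of -0.05 in the log2 ratio (exact two-sided permutation p = 0.5, adjusted 0.5 over 4 pairs of members compared).

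The 3 general sheddases among the members, Adam9, Adam10 and Adam17, did not pass the test. Adam17 (gene-Adam17, chromosome 6), the TNF-converting enzyme that also releases EGF receptor ligands, had 107, 103 and 113 CPM in siNONO replicates 1, 2 and 3, against 105, 105 and 101 CPM in siCtrl replicates 1, 2 and 3. Its log2 fold change was 0.05, with a 95% interval of -0.04 to 0.15 (edgeR adjusted p = 0.398). Adam10 (gene-Adam10, chromosome 8), the sheddase that cuts Notch receptors and cadherins, had 45.2, 42.4 and 47.3 CPM in siNONO and 43.3, 51.1 and 46.7 CPM in siCtrl libraries. The groups overlapped, and its log2 fold change was -0.07 (95% interval -0.20 to 0.07; edgeR adjusted p = 0.450). Adam9 (gene-Adam9, chromosome 16), a sheddase with a broad range of reported substrates, had 83.5, 86.0 and 82.2 CPM in siNONO and 83.7, 85.5 and 94.1 CPM in siCtrl libraries. Its groups overlapped too, with a log2 fold change of -0.07 (95% interval -0.17 to 0.04; edgeR adjusted p = 0.342). The interval of each of these genes excludes a change as large as that of Adam12 or Adam19. The ratio of Adam17 to Adam10 CPM was 2.40 ± 0.0274 in siNONO and 2.22 ± 0.195 in siCtrl (SD, n = 3 each; p = 0.4 by the same exact permutation test, adjusted 0.5).

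The proteoglycan-cutting ADAMTS proteases moved in opposite directions. Adamts5 (gene-Adamts5, chromosome 11), the main aggrecanase of mouse cartilage and a versican-cutting enzyme, had 109, 98.8 and 120.3 CPM in siNONO replicates 1, 2 and 3, against 75.2, 87.0 and 75.2 CPM in siCtrl replicates 1, 2 and 3. Every siNONO library was above every siCtrl library, with the widest spread in siNONO. The means were 109 ± 10.7 CPM in siNONO and 79.1 ± 6.79 CPM in siCtrl (SD, n = 3 each), 138% of the control level and on the log2 scale 0.47 ± 0.07 (SE; edgeR adjusted p = 0.000190). Adamts4 (gene-Adamts4, chromosome 13), the other classical aggrecanase, had 24.4, 23.8 and 20.8 CPM in siNONO replicates 1, 2 and 3, against 35.1, 32.5 and 40.8 CPM in siCtrl replicates 1, 2 and 3. All siNONO values were below all siCtrl values. The means were 23.0 ± 1.94 CPM in siNONO and 36.1 ± 4.26 CPM in siCtrl (SD, n = 3 each), 63.7% of the control level, and the log2 fold change was -0.66 ± 0.08 (SE; edgeR adjusted p = 3.62e-05). Adamts1 (gene-Adamts1, chromosome 11), a versican-cutting protease that also cuts nidogens, had 120.4, 115 and 114 CPM in siNONO replicates 1, 2 and 3, against 134, 147 and 147 CPM in siCtrl replicates 1, 2 and 3. The groups were apart by a smaller margin, with means of 116 ± 3.61 CPM in siNONO and 143 ± 7.38 CPM in siCtrl (SD, n = 3 each), 81.4% of the control level and on the log2 scale -0.30 ± 0.05 (SE; edgeR adjusted p = 0.000276).

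Within a library, Adamts5 was higher relative to Adamts4 and to Adamts1 in every siNONO library than in any siCtrl library. With Adamts5 raised, the other 2 genes lowered and their group values apart, this separation was given in advance and is no further evidence. The 4 pairs compared by ratio were picked by hand. The ratio of Adamts5 to Adamts4 CPM was 4.45, 4.15 and 5.78 in siNONO replicates 1, 2 and 3, against 2.14, 2.68 and 1.84 in siCtrl replicates 1, 2 and 3. The groups did not overlap, and the log2 ratio differed by 1.11 (p = 0.1 by an exact two-sided permutation test, which cannot go lower with 3 against 3; adjusted 0.2 over 4 pairs). The ratio of Adamts5 to Adamts1 CPM was 0.901, 0.860 and 1.06 in siNONO replicates 1, 2 and 3, against 0.560, 0.591 and 0.512 in siCtrl replicates 1, 2 and 3, a log2 difference of 0.76 with the same p and adjusted p. Adamts1 and Adamts5 are next to each other on chromosome 11 in the RefSeq annotation of assembly GRCr8, which was used for gene order alone.

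The versican-cutting protease Adamts9 rose slightly and Adamts12 did not pass. Adamts9 (gene-Adamts9, chromosome 4), which cuts versican and aggrecan, had 20.04, 18.9 and 22.9 CPM in siNONO replicates 1, 2 and 3, against 16.8, 17.8 and 17.1 CPM in siCtrl replicates 1, 2 and 3. The lowest siNONO library was just above the highest siCtrl library, and the means were 20.6 ± 2.08 CPM in siNONO and 17.2 ± 0.540 CPM in siCtrl (SD, n = 3 each). The log2 fold change was 0.26 ± 0.07 (SE; edgeR adjusted p = 0.0167). Its call ended without siNONO replicate 3 (log2 fold change 0.17; adjusted p = 0.0994), without siCtrl replicate 3 (0.25; adjusted p = 0.0512) and on log2(FPKM + 0.1) (0.29; limma adjusted p = 0.0545), and over all 20 alternatives its adjusted p ran from 0.00164 to 0.0994. Adamts12 (gene-Adamts12, chromosome 2), a protease that cuts cartilage oligomeric matrix protein, had 14.8, 13.3 and 14.1 CPM in siNONO replicates 1, 2 and 3, against 11.99, 12.6 and 14.9 CPM in siCtrl replicates 1, 2 and 3. The groups overlapped, and the log2 fold change was 0.09 with a 95% interval of -0.09 to 0.28 (edgeR adjusted p = 0.453).

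The sums over the members differed between the groups for the membrane proteases and lay close together for the secreted ones. The 5 ADAM members summed to 107 ± 3.48 FPKM in siNONO and 133 ± 6.25 FPKM in siCtrl, and the 5 ADAMTS members to 59.9 ± 2.79 FPKM in siNONO and 59.5 ± 3.45 FPKM in siCtrl (SD, n = 3 each). In TMM-scaled CPM, which is not divided by gene length, the ADAM sum was 643 ± 19.1 in siNONO and 873 ± 31.1 in siCtrl. The ADAMTS sum was 283 ± 11.9 CPM in siNONO and 289 ± 13.1 CPM in siCtrl, so the order of its means depended on the measure. Of the summed FPKM of all 10, Adam19 held 20.7% ± 0.479 in siNONO and 26.8% ± 0.209 in siCtrl, Adam12 held 10.8% ± 0.416 in siNONO and 14.5% ± 0.322 in siCtrl, and Adamts5 held 15.6% ± 1.06 in siNONO and 9.503% ± 0.661 in siCtrl (SD, n = 3 each). These sums and shares are descriptive and were not tested.

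The rest of both families also held raised and lowered genes. Of 43 further ADAM, ADAMTS and ADAMTS-like symbols, 32 were in the count table and 23 were tested, of which 6 were raised and 3 lowered. Together with the members that is 8 raised and 7 lowered of 33, against 16.2% raised and 15.9% lowered over all tested genes, with a median log2 fold change of 0.01. Among the ADAM genes, Adam15, a catalytically active membrane protease of the family, was lowered, with 106 ± 2.30 CPM in siNONO and 126 ± 1.89 CPM in siCtrl (SD, n = 3 each; log2 fold change -0.25 ± 0.04, edgeR adjusted p = 0.000340). The other 6 tested ADAM genes did not pass: Adam8, a protease of leukocytes, had 38.9 CPM in siNONO and 38.8 CPM in siCtrl, and Adam33 had 55.5 CPM in siNONO and 51.8 CPM in siCtrl. Adam23 had 5.05 CPM in siNONO and 5.06 CPM in siCtrl. The log2 fold changes were 0.21 for Adam1a, 0.23 for Adam4 and 0.57 for Adam22, the last at 0.407 CPM in siNONO and 0.272 CPM in siCtrl. The related gene Adam4l1 lies beside Adam4, so reads may be split between them and the value of Adam4 is uncertain. Adam7, Adam30 and Adam32, known from the male reproductive tract, and Adam11, known from the brain, had means of at most 0.0703 CPM in either group and were not tested.

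Among the other secreted members of the family, the largest rise was that of Adamts8. Adamts8, reported to cut aggrecan, had 7.32 ± 0.212 CPM in siNONO and 3.49 ± 0.368 CPM in siCtrl (SD, n = 3 each), and its log2 fold change was 1.07 ± 0.11 (edgeR adjusted p = 7.06e-06). Its neighbour on chromosome 8 in the RefSeq order, Adamts15, a related protease, was also raised, with 382 ± 10.7 CPM in siNONO and 334 ± 15.1 CPM in siCtrl (0.19 ± 0.04; edgeR adjusted p = 0.00419). So the pair on chromosome 8 rose together, whereas the pair on chromosome 11 held 1 raised and 1 lowered gene. Adamts6 and Adamts10, both known for binding to fibrillin microfibrils, rose by 0.24 and 0.22 on the log2 scale. The call of Adamts6 ended without siNONO replicate 1 (adjusted p = 0.0822), siNONO replicate 3 (0.111) or siCtrl replicate 1 (0.0594) and on log2(FPKM + 1) (limma adjusted p = 0.0600) and log2(FPKM + 0.1) (0.0554), in a range of 6.16e-05 to 0.111 over 20 alternatives. The call of Adamts10 ended without siNONO replicate 1 (adjusted p = 0.0647) or siNONO replicate 3 (0.0777), in a range of 0.000153 to 0.0777.

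The procollagen N-propeptidases, which trim the amino ends of fibrillar procollagens, were lowered or did not pass. Adamts2 had 241 ± 5.53 CPM in siNONO and 291 ± 11.2 CPM in siCtrl (SD, n = 3 each; log2 fold change -0.27 ± 0.04, edgeR adjusted p = 0.000226). Adamts3 had 17.4 ± 1.65 CPM in siNONO and 22.7 ± 2.25 CPM in siCtrl (-0.39 ± 0.08; edgeR adjusted p = 0.00238), and Adamts14 did not pass (-0.08; edgeR adjusted p = 0.326). Of the ADAMTS-like glycoproteins, which lack the protease domain, Adamtsl1 (85.9 ± 1.41 CPM in siNONO and 56.1 ± 2.15 CPM in siCtrl; log2 fold change 0.61 ± 0.04) and Adamtsl2 (74.2 ± 5.24 CPM in siNONO and 51.8 ± 7.80 CPM in siCtrl; 0.52 ± 0.08) rose, with edgeR adjusted p-values of 3.18e-07 and 0.000333. Adamtsl3 (0.29), Adamtsl4 (0.01) and Adamtsl5 (-0.07) did not pass, nor did Adamts7 (-0.05), Adamts13 (-0.52), Adamts16 (-0.65) and Adamts17 (-0.51), the last 3 with siCtrl means of 0.507, 0.357 and 1.12 CPM. Adamtsl3 was raised without siCtrl replicate 2 (0.42; edgeR adjusted p = 0.0486) and with no filter on low counts (0.30; adjusted p = 0.0426).

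**Figure D3:**
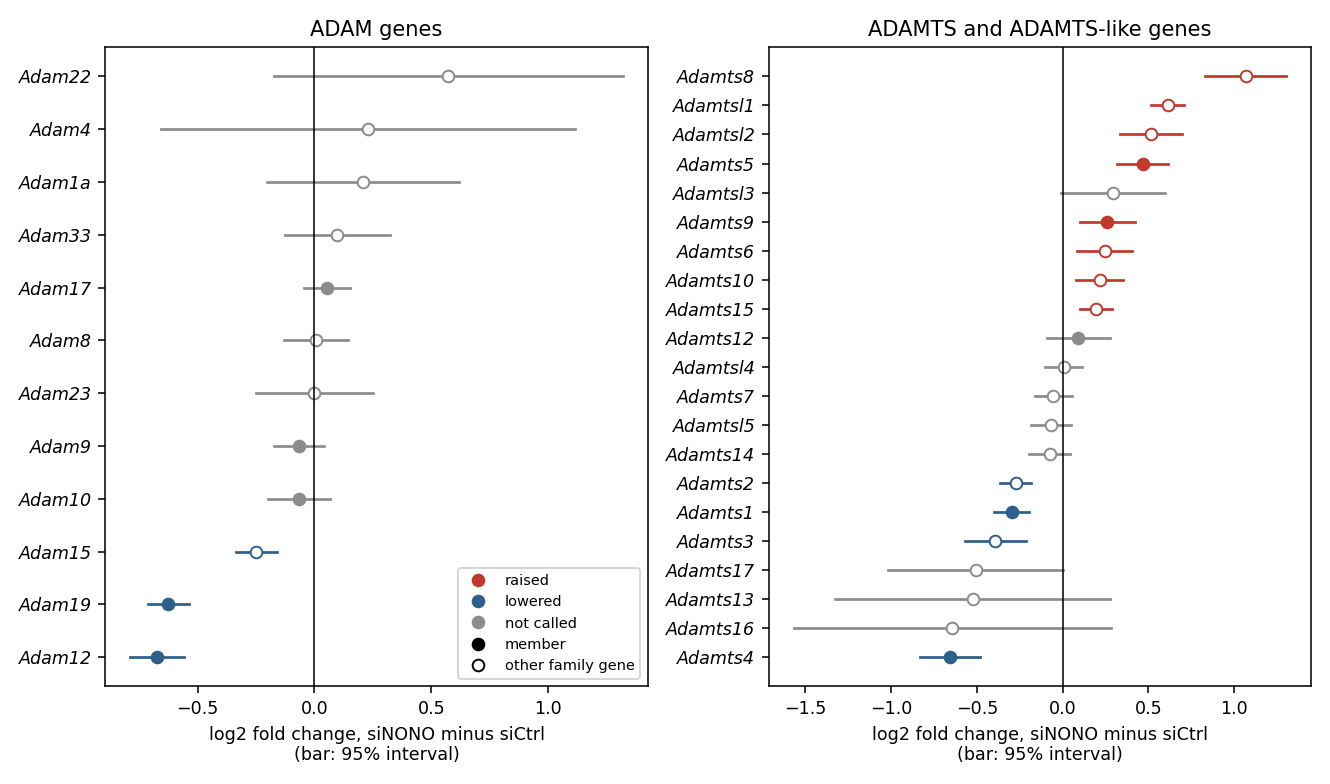
Log2 fold change (siNONO minus siCtrl) with its 95% interval for the tested ADAM genes (left panel) and the tested ADAMTS and ADAMTS-like genes (right panel); filled points are the 10 members, open points the other family genes, red raised, blue lowered and grey not called. Adam12 and Adam19 lie lowest on the left, and on the right calls stand on both sides of 0, from Adamts4 at -0.66 to Adamts8 at 1.07.

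Timp2, Timp3 and Reck, genes of metalloprotease inhibitors, were lowered. Of 5 tested genes of the list of inhibitors and the clearance receptor, 3 were lowered and 0 raised (over all tested genes 15.9% and 16.2%), with a median log2 fold change of -0.15. Timp3, the matrix-bound inhibitor of ADAM17, ADAMTS4 and ADAMTS5, had 11.1 ± 1.996 CPM in siNONO and 15.7 ± 1.74 CPM in siCtrl (SD, n = 3 each; log2 fold change -0.52 ± 0.11, edgeR adjusted p = 0.00311). Timp2 (1621 ± 23.8 CPM in siNONO and 1794 ± 48.1 CPM in siCtrl; -0.15 ± 0.04; edgeR adjusted p = 0.0143) and Reck, a membrane-anchored inhibitor (68.6 ± 3.62 CPM in siNONO and 78.2 ± 6.03 CPM in siCtrl; -0.19 ± 0.06; edgeR adjusted p = 0.0222), were lowered as well. The call of Timp2 ended in 8 of 20 alternatives, among them total library size scaling (adjusted p = 0.0533) and leaving out siNONO replicate 1 (0.0571), siNONO replicate 3 (0.0641) or siCtrl replicate 3 (0.0508), in a range of 0.00130 to 0.0717. The call of Reck ended in 8 as well, among them total library size scaling (0.108) and leaving out siNONO replicate 1 (0.0701), siNONO replicate 2 (0.0781) or siCtrl replicate 2 (0.105), in a range of 0.00224 to 0.170. Both calls ended by total library size scaling, with the replicate block, on the 3 log2(FPKM + pseudocount) fits and without siNONO replicate 1. In each of these settings Timp3 was the 1 lowered gene of the list. Timp1 (0.06) did not pass, but it was raised with a correction for gene length (0.13; edgeR adjusted p = 0.0124) and with that correction and the replicate block (0.13; adjusted p = 0.0387), in a range of 0.0124 to 0.922 over 20 alternatives. Lrp1 (-0.04), the endocytic receptor that removes ADAMTS4 and ADAMTS5 from the matrix and a choice made after seeing the values, did not pass, and Timp4 was below 0.02 CPM in both groups and not tested.

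Genes that carry ADAM10 and ADAM17 to the cell surface or activate ADAM proteases moved both ways. Of 11 tested, 2 were raised and 3 lowered (16.2% and 15.9% over all tested genes), with a median log2 fold change of -0.02. Tspan5, a tetraspanin partner of ADAM10, had 72.4 ± 1.07 CPM in siNONO and 47.5 ± 1.72 CPM in siCtrl (SD, n = 3 each; log2 fold change 0.61 ± 0.04, edgeR adjusted p = 3.49e-07). Rhbdf2, which encodes the ADAM17 chaperone iRhom2, had 33.2 ± 1.89 CPM in siNONO and 24.2 ± 0.690 CPM in siCtrl (0.46 ± 0.06; edgeR adjusted p = 3.39e-05). The convertase genes Pcsk5 (50.5 ± 2.15 CPM in siNONO and 75.4 ± 8.07 CPM in siCtrl; -0.58 ± 0.07; edgeR adjusted p = 1.73e-05) and Pcsk6 (45.8 ± 0.695 CPM in siNONO and 54.3 ± 3.28 CPM in siCtrl; -0.25 ± 0.05; edgeR adjusted p = 0.00182) fell, as did Furin (-0.19 ± 0.04), a choice made after seeing the values. The genes of Rhbdf1, the other iRhom, and of Frmd8, which stabilises iRhoms, had log2 fold changes of -0.02 and 0.05, and, likewise chosen afterwards, did not pass.

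In the lists of genes tied to shedding by membrane ADAMs, 2 of 8 in the EGF family, 1 of 9 in the Notch list and 8 of 20 other substrates were raised. In the same order, 0, 0 and 3 were lowered. The EGF list also holds receptors and the Notch list target genes, so those 2 lists are not counts of substrates. Over all tested genes 16.2% were raised and 15.9% lowered, and the raised counts of the EGF and Notch lists lie near the first of these shares. Of 8 tested EGF-family ligands and receptors, 2 were raised and 0 lowered (median log2 fold change 0.02). Ereg, the ligand epiregulin, had 1.29 ± 0.105 CPM in siNONO and 0.577 ± 0.210 CPM in siCtrl (SD, n = 3 each; 1.17 ± 0.27, edgeR adjusted p = 0.00448). It is a gene of low counts, 13 to 48 per library, below the 1 CPM mean set for naming genes. The receptor gene Erbb2 had 27.5 ± 0.525 CPM in siNONO and 24.2 ± 0.570 CPM in siCtrl (0.19 ± 0.05; edgeR adjusted p = 0.0126), a call that ended without siNONO replicate 1 (adjusted p = 0.0635) or siCtrl replicate 3 (0.0526), in a range of 0.00415 to 0.0635 over 20 alternatives. Of 9 tested Notch receptors, ligands and targets, Notch4 was the called gene, with 3.48 ± 0.322 CPM in siNONO and 1.83 ± 0.0480 CPM in siCtrl (0.92 ± 0.15; edgeR adjusted p = 0.000360). The list's median was 0.01. Genes named here for a changed call were chosen after their values were seen. Notch2 was raised as well in 5 of 20 alternatives, among them total library size scaling (0.17; edgeR adjusted p = 0.0124), in a range of 0.0124 to 0.258. Notch3 was lowered without siCtrl replicate 2 (-0.35; adjusted p = 0.0387) and with the gene length correction (-0.31; adjusted p = 0.0428). Jag1, a Notch ligand gene, was lowered with that correction alone (-0.18; adjusted p = 0.0344) or with the replicate block (-0.18; adjusted p = 0.0491). Of 20 tested cytokine, adhesion and other membrane substrates of ADAM10 and ADAM17, 8 were raised and 3 lowered (median 0.03). Among the raised genes, the call of Tnfrsf1a ended in 10 of 20 alternatives and that of Cx3cl1 in 6 of 20. Cd44, the hyaluronan receptor, had 123 ± 5.07 CPM in siNONO and 78.8 ± 2.40 CPM in siCtrl (0.65 ± 0.05; edgeR adjusted p = 2.46e-07), and Axl, a receptor tyrosine kinase, had 266 ± 19.2 CPM in siNONO and 205 ± 14.4 CPM in siCtrl (0.38 ± 0.06; edgeR adjusted p = 0.000234). App, the amyloid precursor, had 1299 ± 21.6 CPM in siNONO and 1615 ± 38.8 CPM in siCtrl (-0.31 ± 0.04; edgeR adjusted p = 5.28e-05), and Cdh11, the mesenchymal cadherin, fell by 0.24 on the log2 scale.

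Nid1, Lum and other matrix substrates of the ADAMTS proteases were lowered. Of 15 tested, 8 were lowered and 1 raised, against 15.9% lowered and 16.2% raised over all tested genes, with a median log2 fold change of -0.23. On log2(FPKM + 1) among genes with at least 1 FPKM in 3 libraries, 5 were lowered. That filter left out Cspg4 and Hapln3, and Bgn lost its call there (limma adjusted p = 0.0729). The call of Bgn ended in 4 of 20 alternatives and that of Hapln3 in 6 of the 19 that tested it. The list shares Dcn and Lum with the fibroblast markers and Cspg4 with the pericyte and smooth muscle markers. The basement membrane linker Nid1 had 398 ± 13.9 CPM in siNONO and 889 ± 42.4 CPM in siCtrl (SD, n = 3 each; -1.16 ± 0.05, edgeR adjusted p = 1.27e-09), and lumican (Lum), a small proteoglycan, had 18.9 ± 0.873 CPM in siNONO and 35.6 ± 2.40 CPM in siCtrl (-0.91 ± 0.06; edgeR adjusted p = 1.68e-07). Thbs2, a thrombospondin, was the raised gene, with 1170 ± 40.1 CPM in siNONO and 978 ± 54.0 CPM in siCtrl (0.26 ± 0.05; edgeR adjusted p = 0.00104), and Fn1, named after its values were seen, was raised in 3 of 20 alternatives: without siCtrl replicate 2 (0.18; adjusted p = 0.0218), by total library size scaling (0.17; 0.0269) and with no filter (0.13; 0.00642). Versican (Vcan), the substrate that Adamts1, Adamts4, Adamts5 and Adamts9 have in common and a choice made after seeing the values, had 676 ± 15.5 CPM in siNONO and 725 ± 37.8 CPM in siCtrl and did not pass (-0.10 ± 0.05; edgeR adjusted p = 0.108). It was lowered without siCtrl replicate 1 (-0.14; adjusted p = 0.0155) and with the gene length correction, alone (-0.13; 0.00976) or with the replicate block (-0.13; 0.0250), and its adjusted p ran from 0.00976 to 0.468 over 20 alternatives.

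**Figure D4:**
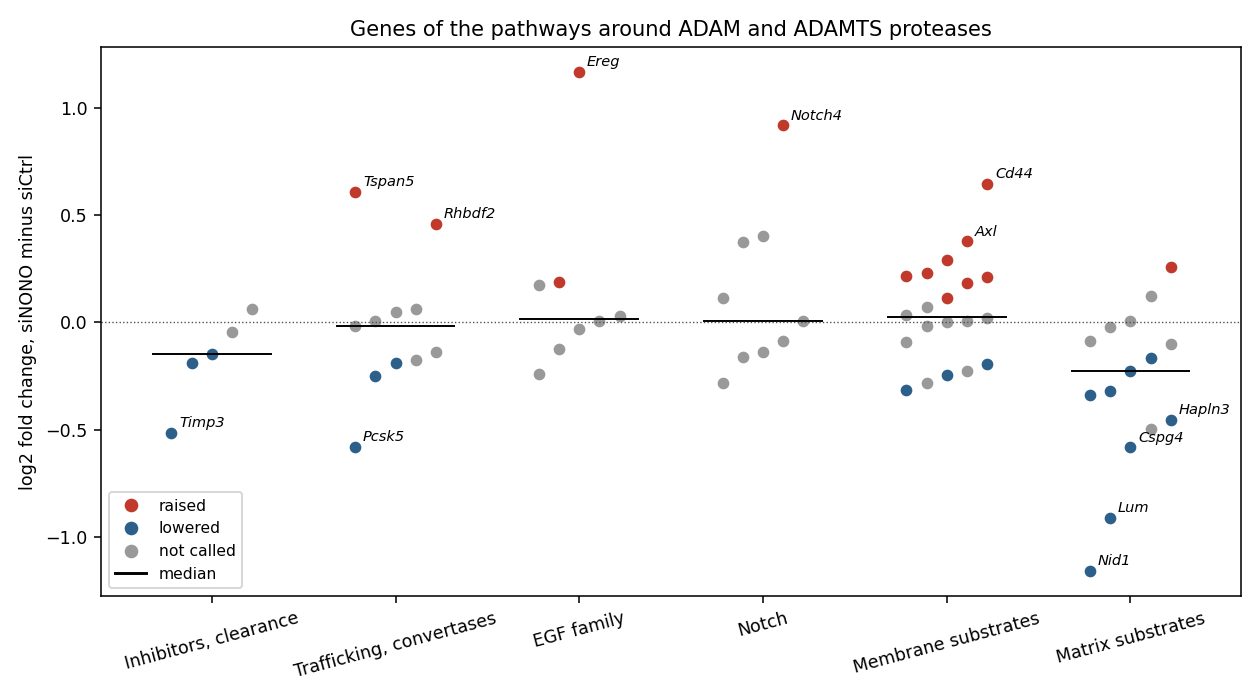
Log2 fold change (siNONO minus siCtrl) of each tested gene in 6 lists of inhibitors, partners and substrates; red points were raised, blue lowered and grey not called, and the bar is the list's median. Medians lie near 0 for the trafficking, EGF, Notch and membrane substrate lists, at -0.15 for the inhibitors and at -0.23 for the matrix substrates.

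The genes with the profile most like a member's over the 6 libraries were found by the root mean square difference of log2 CPM after centring each gene on its own mean, among 10502 other genes with a mean of at least 5 CPM. For Adamts5, the raised member with the lowest adjusted p, they were Plk2 (0.0314), Akap12 (0.0358) and Cobl (0.0376 log2 units). For Adam19, the lowered member with the lowest adjusted p, they were Cp (0.0223), Maob (0.0308) and Sesn3 (0.03395 log2 units).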

How the data were processed

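Stranded libraries were made from poly(A)-selected RNA after DNase treatment, per the labels' protocols. The submitters' processing notes name HISAT2, edgeR and build mRatBN7.2. Their versions, the counter and whether it used strand are given in no source used here, so overlapping and antisense genes are uncertain. The deposited count table holds raw read counts per gene, and the deposited FPKM table holds values per kilobase and library size made by the authors; there were 0 columns of other samples. Samples were grouped by title. No pair of libraries within a group was 1 library deposited again (chi-square per degree of freedom 3.18 to 7.58).

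The analysis used edgeR 4.0.16 and limma 3.58.1 under R 4.3.3: filterByExpr, TMM, and the two-sided quasi-likelihood test with Benjamini-Hochberg adjustment over 14412 genes. SE is the log2 fold change divided by the root of F, and 95% intervals use the test's degrees of freedom. With these depths, 3 counts are 0.0899 to 0.108 CPM, and such limits cover counting error only. The edgeR fit, limma-voom and the replicate block were tested on simulated counts. Alternatives were 3 other scalings, 2 other filters, DESeq2 1.42.0, limma-voom, a robust fit, a replicate block, a correction for gene length (alone or with that block), 3 limma fits on log2(FPKM + pseudocount), and leaving out each library.

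The members, the 8 companion lists and the 6 marker lists were chosen with earlier results of these data known. Named were all members, Nono, every tested family gene and Timp gene, and, of each other list, at most the 2 most raised and the 2 most lowered called genes (mean of at least 1 CPM). Other genes, such as Lrp1, Notch2, Notch3, Jag1, Fn1, Vcan, Furin, Rhbdf1, Frmd8 and single markers, were chosen after their values were seen. The same holds for Tnfrsf1a, Cx3cl1, Bgn, Hapln3 and Cspg4. Ereg, with a mean under 1 CPM over all libraries, was also named outside this rule. The 3 genes most like a member were ranked for the raised and the lowered member with the lowest adjusted p. Figures were drawn with matplotlib 3.10.9.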

Additional observations from a re-analysis of the deposited data

How the results depend on the processing

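Each member kept its direction and its side of the threshold under all 20 alternatives, except Adamts9, which lost its call in 3 of them. The raised members were thus 1 on log2(FPKM + 0.1) and 1 to 2 when a library was left out, against 2, and the lowered members were 4 throughout. Over all genes, 2338 were raised and 2292 lowered. Total library size scaling gave 3174 raised and 1673 lowered (65.5% raised, against 50.5%, with a median log2 fold change of 0.05), log2(FPKM + 1) gave 2829 and 1546, log2(FPKM + 0.1) 2820 and 1566, and log2(FPKM + 1) with at least 1 FPKM in 3 libraries 2687 and 1424; the causes were not tested. Leaving out a library gave 1675 to 2243 raised and 1694 to 2143 lowered genes, and 15 to 21 raised and 17 to 23 lowered companion genes, against 20 and 20. An order by counts per kilobase used lengths recovered from the FPKM values, so it is no independent check of the order by level. With the replicate number as a block, 1894 genes were raised and 1863 lowered, and 2 members raised and 4 lowered. Same-numbered libraries did not deviate together (r = -0.169, -0.332 and -0.00762 over genes), and differently numbered ones had r from -0.194 to 0.312. Deviations from a mean of 3 libraries are tied to each other, so these values cannot settle whether cultures or days were shared. The numbers were not taken as pairs because the labels do not say that they are. Genes under about 1 CPM, such as Adamts16, had intervals too wide to call changes of the size seen for the members.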

Other observations

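The protein-coding neighbours of the members in the RefSeq order of assembly GRCr8, looked up after the data were seen, included raised and lowered genes. Adam17 did not pass, but of its neighbours Iah1 was raised (log2 fold change 0.33 ± 0.06, SE; edgeR adjusted p = 0.00107) and Ywhaq, a 14-3-3 protein gene, was lowered (-0.25 ± 0.04; edgeR adjusted p = 0.000260). Adam10 did not pass, and its neighbour Mindy2 was lowered (-0.25 ± 0.05; edgeR adjusted p = 0.00156). Adamts9 and both of its neighbours were raised, Prickle2 by 0.21 ± 0.05 and Magi1 by 0.37 ± 0.08 on the log2 scale. No test of position was made.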
